A study of Homo sapiens with 9 samples.

Results

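The proteasome is described here through the genes of its subunits, activators and assembly factors, taken by symbol as every gene named PSM, a letter A to G and a number. The rule found 48 of the 21619 genes in the deposited tables, and 46 of them were among the 13458 genes tested. The 2 untested members were PSMA8, a testis form of an alpha subunit with 30 counts in all, and PSMB11, the thymus beta subunit with 2 counts in all. The members were compared between tumours of MDA-MB-231 cells grown with and without human bone marrow mesenchymal stem cells (MSC). MDA-MB-231 is 1 established line of triple-negative breast cancer, and in both groups it carried ribosomal protein L10a (RPL10A) fused to EGFP. The cells went into the mammary fat pad of mice, either mixed with an equal number of MSC (5 tumours, numbered 1, 6, 7, 10 and 15) or alone (4 tumours, numbered 9, 11, 12 and 13). Tumours came from different mice and were taken after 3 weeks, and the strain of the mice is not given in the sources used here. RNA on tagged ribosomes was pulled from lysed whole tumours with antibody to the tag, a method called translating ribosome affinity purification. No total RNA was used here, so the amount of an RNA and its association with ribosomes cannot be told apart.

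The proteasome degrades proteins that carry ubiquitin chains. Its core particle is a barrel of alpha rings, which gate the entrance, around beta rings, where PSMB5, PSMB6 and PSMB7 hold the cutting sites. In lymphoid cells, and in many other cells under interferon gamma, PSMB8 takes the place of PSMB5, PSMB9 that of PSMB6 and PSMB10 that of PSMB7, which gives the immunoproteasome and alters the peptides made for MHC class I. A regulatory particle of ATPases (PSMC) and non-ATPase subunits (most of PSMD) receives and unfolds substrates, while PSME activators can cap the core in its place. The transcription factor NRF1, encoded by NFE2L1, raises most subunit genes together when the proteasome is inhibited.

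The 5 libraries with MSC held 29749909 to 50639082 gene counts and the 4 without held 24616792 to 65275226, and every tested member had 830 to 32406 counts in each. Levels are in CPM, with library sizes adjusted by TMM factors. A log2 change is with MSC minus without, ± SE, and was called at an adjusted p under 0.05 over all 13458 genes in edgeR's quasi-likelihood test. The luminal receptors ESR1 and PGR, which this line lacks, summed to 0.208 CPM at most. Of 10 leukocyte markers, 2, among them the B cell marker MS4A1, had 0 counts in all 9 libraries. The 10 together summed to 174 to 257 CPM with MSC and 146 to 194 CPM without. The pull on tagged ribosomes was aimed at RNA of the cancer line, but RNA of other cells may be carried over. For a marker of another cell type, carry-over, cell number and RNA per cell cannot be told apart. Tumour 15 stood apart within the MSC group: its 9 fibroblast and MSC markers summed to 117 CPM, against 34.0 CPM at most in the other 8 tumours, and its TMM factor was 1.14. RPL10A was at 1576 to 2609 CPM with MSC and 1793 to 2061 CPM without. Of 8 genes that mark this line, 4 rose with MSC, among them AXL (0.53 ± 0.12, edgeR adjusted p = 0.0137), and 1, S100A4, fell (-0.52 ± 0.13, edgeR adjusted p = 0.0242), with a median of 0.41. Over all tested genes 4.18% rose and 3.6% fell. The call of AXL was lost without tumour 9 or 12, and that of S100A4 without tumour 1, 10, 11 or 12. Both were lost without tumours 10 and 15 together or tumours 15 and 12 together. The fibroblast gene COL1A2 rose by 2.41 ± 0.51 on the log2 scale (edgeR adjusted p = 0.0104) and the endothelial gene PECAM1 was at -0.94 ± 0.19 (edgeR adjusted p = 0.00745). The call of COL1A2 was lost without tumour 12, without tumours 10 and 15 together and with limma-voom in place of edgeR. PECAM1 was called in every fit. The part of these shifts in the values of the proteasome genes was not tested.

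Few proteasome genes changed between the groups, and those that did were lower in tumours with MSC. Of the 46 tested members, 4 fell (PSMA4, PSMA5, PSMD1 and PSME2) and 0 rose, where 3.6% of all tested genes fell and 4.18% rose (7.78% in either direction). The 4 make 8.70% of the members. In GENCODE 29 (GRCh38) PSMA4 lies at chr15:78540405-78552419, PSMD1 at chr2:231056864-231172827, both on the plus strand, and PSME2 at chr14:24143362-24147570 and PSMA5 at chr1:109399031-109426427, both on the minus strand. At an unadjusted p under 0.05 in edgeR, 14 members were lower and 1, PSMB7, was higher, which is 30.4% and 2.17% of the members, against 11.8% and 12.8% of all genes. DESeq2 and limma-voom also called 0 members higher, and they called 5 and 4 lower. The log2 change was negative in 35 members (76.1%), against 48.9% of all genes, and the median was -0.17, against 0.01 over all genes. Changes spanned -0.52 to 0.30, so that no member reached 1.5-fold. In 4 members (PSMA5, PSMA6, PSMD1 and PSME2) all 5 tumours with MSC lay below all 4 without, as did 4.87% of all genes, and in 0 members they lay above, as did 5.13%.

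The summed proteasome level overlapped between the groups, and its order over tumours depended on the scaling. Summed over all members, TMM-scaled CPM was 8077, 8146, 8364, 6940.1 and 6828 in tumours 1, 6, 7, 10 and 15 with MSC, against 7911, 8359.9, 8564 and 7944 in tumours 9, 11, 12 and 13 without. The sum averaged 7671 ± 727 CPM with MSC (SD, n = 5) and 8195 ± 320.0 CPM without (n = 4), and the groups overlapped. Tumours 1, 6 and 7 lay within the range of the tumours without MSC, and tumours 10 and 15 lay below all of them. As a plain share of gene counts, without TMM factors, the members made up 0.785, 0.763, 0.826, 0.680 and 0.775% in tumours 1, 6, 7, 10 and 15 with MSC, against 0.797, 0.810, 0.841 and 0.827% in tumours 9, 11, 12 and 13 without. On that scale tumours 1 and 6 also lay below all tumours without MSC, and tumour 15 was above tumour 6. On the TMM scale, tumour 10 or tumour 15 was the lowest of the 9 tumours in 34 of the 46 members. Both were then left out, a choice made after seeing these sums, so that a median nearer to 0 follows from the choice itself. In that fit 0 members were called in either direction by edgeR, the median log2 change was -0.06 and 28 of 46 members were negative. Of all 13465 genes tested in that fit, 235 were called higher and 124 lower, with a median of -0.006. At an unadjusted p under 0.05 in edgeR, 6 members were then higher and 5 lower. The share of all genes at that threshold was not counted in this fit.

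**Figure D1:**
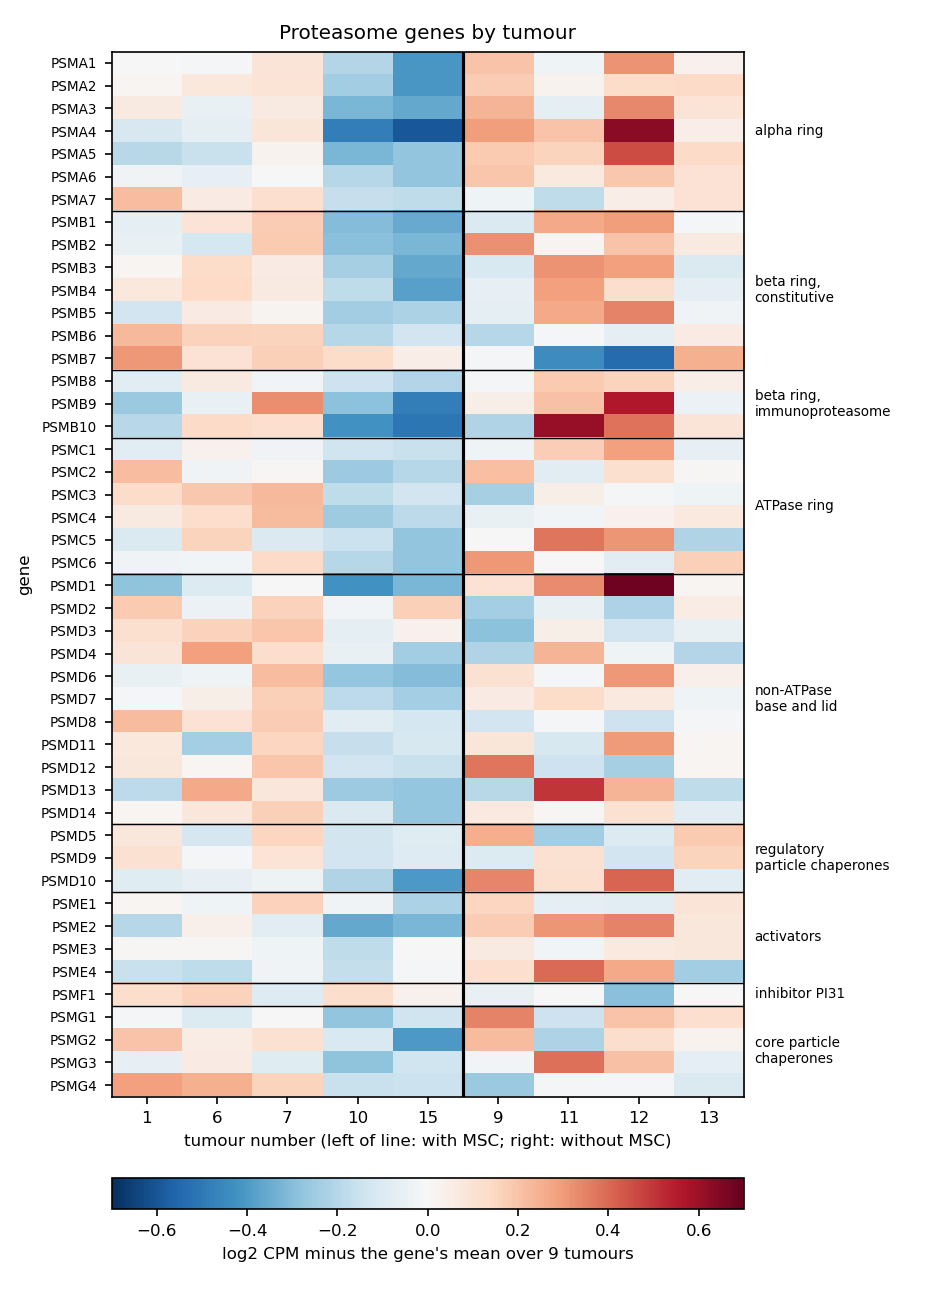
Log2 CPM of the 46 tested proteasome genes (rows, by class) in each tumour (columns, 5 with MSC left and 4 without MSC right), as the difference from the gene's mean over all 9 tumours (colour scale). Values are on the TMM scale. The columns of tumours 10 and 15 lie on the low side in most rows, and tumour 12 is the highest in 13 members.

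**Figure D2:**
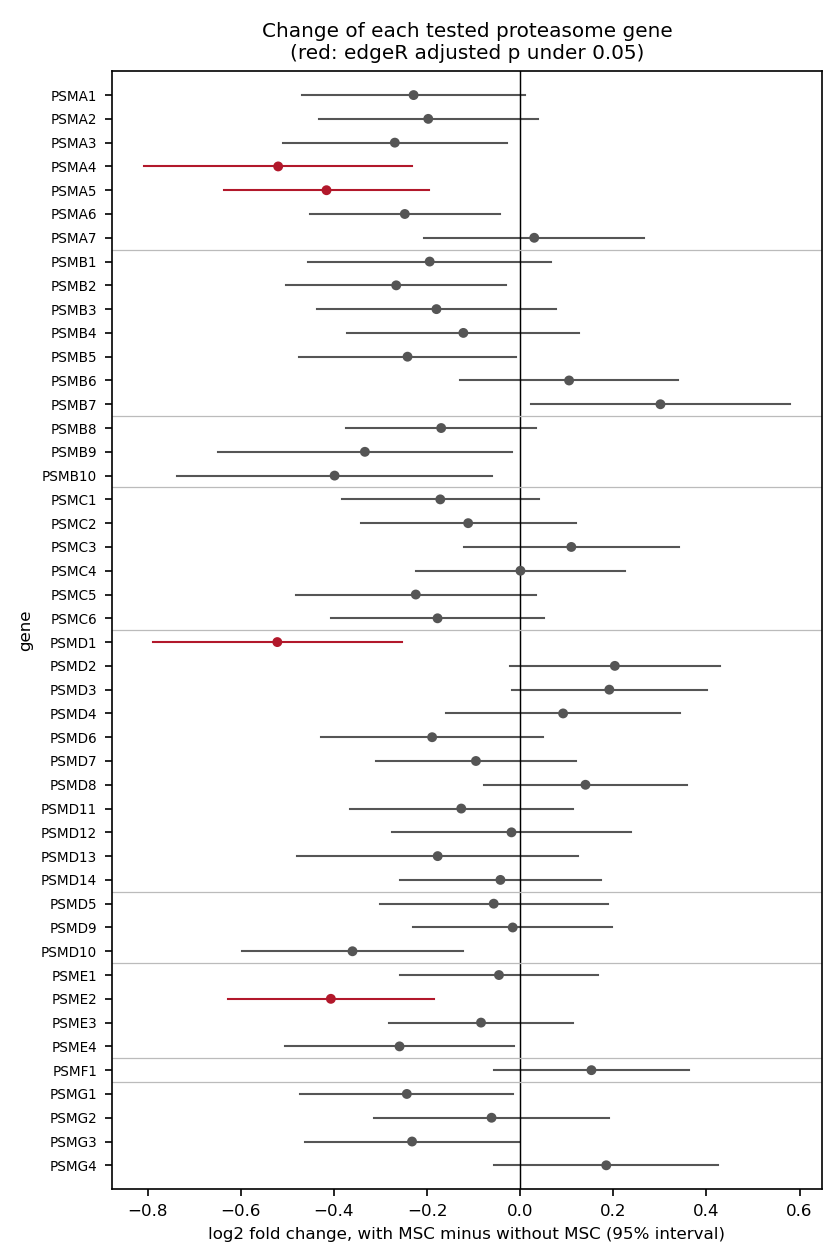
Log2 change with MSC minus without for each tested member, by class, with its 95% interval (bars) from edgeR. Only PSMA4, PSMA5, PSMD1 and PSME2 passed an adjusted p of 0.05, all on the low side, and most intervals cross 0.

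The alpha ring held 2 of the 4 calls. Of its 7 tested subunits, PSMA4 and PSMA5 fell and the other 5 were not called, with a class median of -0.25. PSMA4 had 149, 154, 171, 115 and 107 CPM in tumours 1, 6, 7, 10 and 15 with MSC, against 197, 185, 249 and 166 CPM in tumours 9, 11, 12 and 13 without MSC. The lowest tumour without MSC, tumour 13, was below tumour 7 with MSC, so the groups overlapped, and tumours 10 and 15 were the lowest of all. Its log2 change was -0.52 ± 0.14 (edgeR adjusted p = 0.0278). PSMA5 had 165, 170.1, 192, 152 and 156 CPM in tumours 1, 6, 7, 10 and 15 with MSC, against 215, 211, 259 and 208 CPM in tumours 9, 11, 12 and 13 without MSC. All 5 tumours with MSC were below all 4 without, and tumour 12 stood above the other tumours without MSC. The change of PSMA5 was -0.42 ± 0.11 (edgeR adjusted p = 0.0227). PSMA6 had 196, 192, 199.9, 174 and 165 CPM in tumours 1, 6, 7, 10 and 15 with MSC, against 229, 209, 228 and 214 CPM in tumours 9, 11, 12 and 13 without MSC. These values were also separate between the groups, though the log2 change of -0.25 ± 0.10 was not called (edgeR adjusted p = 0.121). At the other end of the class stood PSMA7, at 0.03 ± 0.11 with 510.3 ± 60.8 CPM with MSC and 499.8 ± 41.1 CPM without. PSMA4 was called in 4 of the 9 fits that left out 1 tumour, and its call was lost without tumour 1, 10, 15, 9 or 12. PSMA5 was called in 5 of 9 and lost without tumour 1, 10, 9 or 12. Both calls were also lost after correction for GC content and length.

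The constitutive beta subunits were not called in either direction. Their 7 log2 changes ran from -0.27 in PSMB2 to 0.30 in PSMB7, with a median of -0.18. The catalytic subunits differed in sign. PSMB5, the chymotrypsin-like site, had 214, 245, 238, 199 and 202 CPM in tumours 1, 6, 7, 10 and 15 with MSC, against 225, 283, 299 and 232 CPM in tumours 9, 11, 12 and 13 without MSC, a log2 change of -0.24 ± 0.11 (edgeR adjusted p = 0.187). PSMB6, the caspase-like site, had 372, 355, 354, 276 and 289.6 CPM in tumours 1, 6, 7, 10 and 15 with MSC, against 276, 315, 303 and 330.0 CPM in tumours 9, 11, 12 and 13 without MSC, a change of 0.10 ± 0.11 (edgeR adjusted p = 0.606). The groups overlapped in both, and neither was called. PSMB7, the trypsin-like site, had 147, 128, 134, 130.3 and 123 CPM in tumours 1, 6, 7, 10 and 15 with MSC, against 118, 87.9, 82.0 and 142 CPM in tumours 9, 11, 12 and 13 without MSC. For PSMB7 the tumours without MSC split, with 11 and 12 below every other tumour and 13 within the range with MSC. Its change of 0.30 ± 0.13 had a 95% interval of 0.02 to 0.58 and was not called (edgeR adjusted p = 0.167), but it was called higher when tumour 13 was left out.

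The immunoproteasome subunits did not pass the test, and all 3 had negative log2 changes, with a median of -0.33. PSMB8 had 75.4, 82.9, 78.5, 71.9 and 69.1 CPM in tumours 1, 6, 7, 10 and 15 with MSC, against 79.1, 90.4, 88.6 and 82.0 CPM in tumours 9, 11, 12 and 13 without MSC. PSMB9 had 32.3, 37.2, 48.4, 31.7 and 27.6 CPM in tumours 1, 6, 7, 10 and 15 with MSC, against 39.8, 44.6, 57.1 and 37.6 CPM in tumours 9, 11, 12 and 13 without MSC. PSMB10 had 29.5, 37.1, 36.6, 25.1 and 23.7 CPM in tumours 1, 6, 7, 10 and 15 with MSC, against 29.2, 51.4, 44.0 and 35.9 CPM in tumours 9, 11, 12 and 13 without MSC. The groups overlapped in each of the 3. The log2 changes were -0.17 ± 0.10 for PSMB8, -0.33 ± 0.15 for PSMB9 and -0.40 ± 0.16 for PSMB10 (edgeR adjusted p = 0.297, 0.178 and 0.132). Their 95% intervals were -0.37 to 0.03, -0.65 to -0.02 and -0.74 to -0.06, so falls of over 1.5-fold remained within the intervals of PSMB9 and PSMB10. PSMB10 was called lower after correction for GC content and length. Leukocytes are rich in these subunits: the 10 leukocyte markers, of which 4 passed the filter and 2 were at 0 in all tumours, summed to 174 to 257 CPM with MSC and 146 to 194 CPM without. The 4 tested ones had a median log2 change of -0.19 and differed in sign: CD68 rose (0.52 ± 0.15, edgeR adjusted p = 0.0371) and LAPTM5 was at -0.39 ± 0.13 (edgeR adjusted p = 0.0667). The call of CD68 was lost without tumour 1, 6, 10, 9 or 12. It was also lost without tumours 10 and 15 together or tumours 15 and 12 together. LAPTM5 was called lower by DESeq2, without tumour 10 and without tumours 10 and 15 together. The 5 endothelial markers summed to 4.91 to 7.26 CPM with MSC and 8.33 to 10.8 CPM without. The hosts were mice and the build was human, hg19, so counts of these markers need not come from leukocytes or endothelium. Whether they came from the tagged line, MSC, mouse reads or other cells was not tested. Their part in the immunoproteasome values was not tested either.

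Set against the subunits they replace, the immunoproteasome genes were the minor form in both groups. As counts per kb of the principal transcript, which allows levels of different genes to be compared, PSMB8 stood at 67.2 CPM per kb with MSC and 75.6 without, and PSMB5 at 169.7 CPM per kb with MSC and 201 without. PSMB9 stood at 45.3 CPM per kb with MSC and 57.2 without, and PSMB6 at 386 CPM per kb with MSC and 359 without. PSMB10 stood at 24.9 CPM per kb with MSC and 32.9 without, and PSMB7 at 135 CPM per kb with MSC and 109.6 without. The constitutive gene was thus the higher one in each couple. The share of PSMB8 in the counts of PSMB8 and PSMB5 was 25.6 ± 0.667% with MSC and 24.8 ± 1.57% without (SD). The share of PSMB9 in the counts of PSMB9 and PSMB6 was 9.70 ± 1.56% with MSC and 12.8 ± 2.32% without. That of PSMB10 in the counts of PSMB10 and PSMB7 was 18.6 ± 3.11% with MSC and 28.0 ± 9.22% without, and tumours 11 and 12 without MSC, at 36.9% and 34.9%, were above all other tumours. All 3 shares overlapped between the groups.

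**Figure D3:**
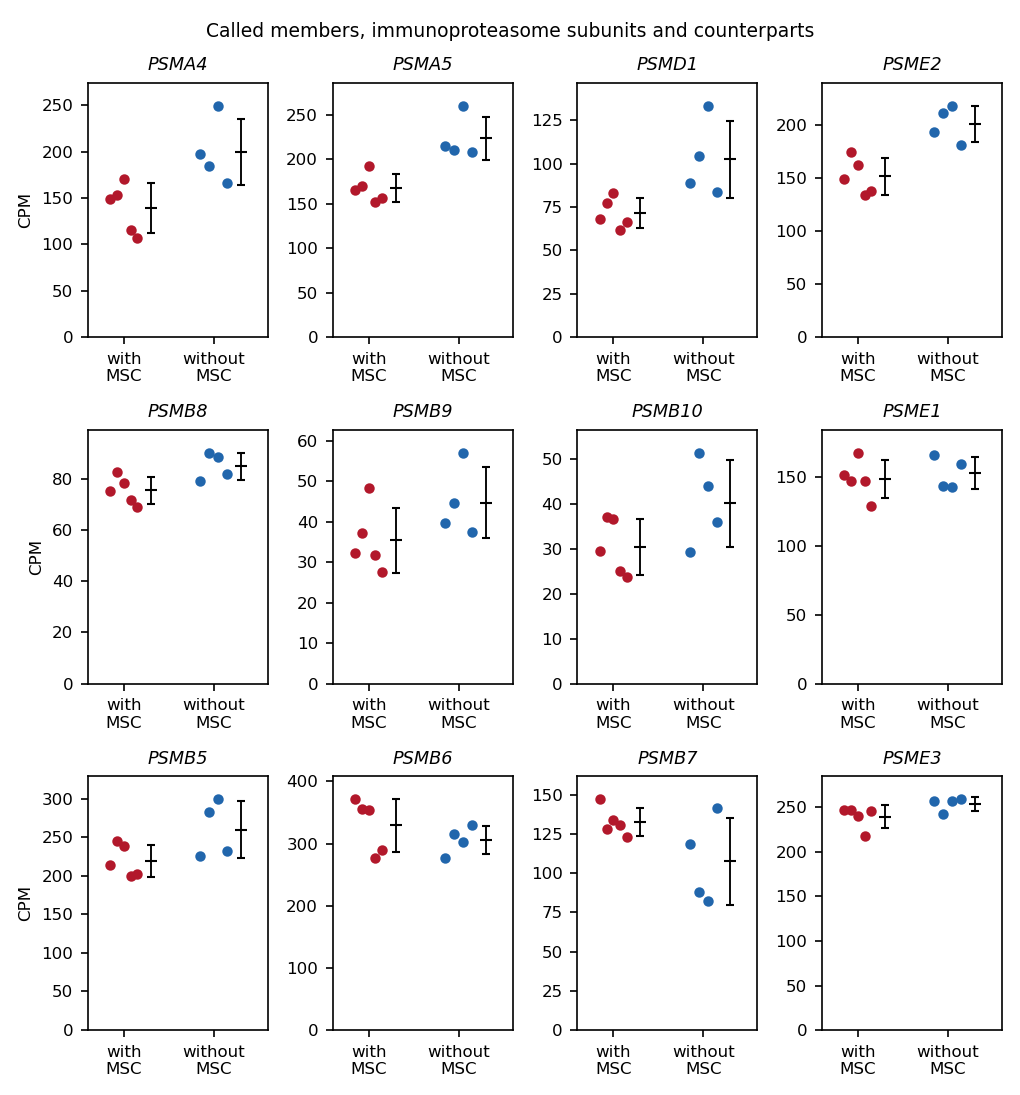
CPM of single members in each tumour (points, 5 with MSC left and 4 without MSC right in each panel), with the mean and SD (bars). The groups are separate in PSMA5, PSMD1 and PSME2 and overlap in PSMA4 and in the immunoproteasome subunits.

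The regulatory particle showed 1 call, in the base. None of the 6 PSMC ATPases was called, and their log2 changes ran from -0.22 in PSMC5 to 0.11 in PSMC3, with a median of -0.14. All 6 had 95% intervals within 0.5 of 0 on the log2 scale. Among the 11 non-ATPase subunits of base and lid, PSMD1 fell, 10 were not called, and the median was -0.04. PSMD1, the large scaffold of the base, had 68.3, 77.6, 82.9, 61.9 and 66.5 CPM in tumours 1, 6, 7, 10 and 15 with MSC, against 89.0, 105, 133 and 83.7 CPM in tumours 9, 11, 12 and 13 without MSC. All tumours with MSC were below all tumours without, and tumour 12 without MSC was the highest. The change was -0.52 ± 0.13 (edgeR adjusted p = 0.0199), and it was called in 6 of 9 fits that left out 1 tumour, but not without tumour 1, 10 or 12. PSMD2, the companion scaffold that docks ubiquitin shuttle factors, stood at the other end of the class with 0.20 ± 0.11 (edgeR adjusted p = 0.255), averaging 563 ± 42.1 CPM with MSC and 489 ± 47.3 CPM without. Of the chaperones that assemble the base, PSMD5, PSMD9 and PSMD10, none was called with all tumours in edgeR with TMM factors. PSMD10, known as gankyrin, had 99.7, 102, 103, 91.5 and 80.3 CPM in tumours 1, 6, 7, 10 and 15 with MSC, against 134, 115, 140.3 and 101 CPM in tumours 9, 11, 12 and 13 without MSC. Only tumour 13 without MSC fell within the range with MSC, and the change of -0.36 ± 0.11 missed the threshold (edgeR adjusted p = 0.0547). PSMD10 was called lower by DESeq2, and in edgeR with library size only, with a floor of 5 CPM or without tumour 13. PSMD9 was at -0.02 ± 0.10.

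Of the class sums, only that of the activators was separate between the groups, and 1 of the 4 genes fell. Taken singly, 4.87% of all tested genes had all 5 tumours with MSC below all 4 without. The 4 PSME genes together had 599.6, 620.1, 627, 549.9 and 569 CPM in tumours 1, 6, 7, 10 and 15 with MSC, against 679, 674, 687 and 649 CPM in tumours 9, 11, 12 and 13 without MSC, with no overlap. PSME2, the interferon-inducible partner of PSME1 in the PA28 ring, was the member called. It had 149, 175, 163, 134 and 137 CPM in tumours 1, 6, 7, 10 and 15 with MSC, against 193, 212, 218 and 181 CPM in tumours 9, 11, 12 and 13 without MSC. The groups were separate, at -0.41 ± 0.11 (edgeR adjusted p = 0.0258). PSME1 had 151, 147, 167, 147 and 128 CPM in tumours 1, 6, 7, 10 and 15 with MSC, against 166, 144, 143 and 159 CPM in tumours 9, 11, 12 and 13 without MSC. The groups overlapped, and the log2 change was -0.05 ± 0.10 (edgeR adjusted p = 0.823). The share of PSME2 in the counts of PSME1 and PSME2 was 50.5 ± 2.60% with MSC and 56.7 ± 3.80% without, and overlapped, with 47.6 to 54.4% with MSC and 53.2 to 60.4% without. PSME3, the nuclear PA28 gamma, had 247, 247, 240.4, 218 and 246 CPM in tumours 1, 6, 7, 10 and 15 with MSC, against 257, 243, 257 and 259 CPM in tumours 9, 11, 12 and 13 without MSC. PSME4, known as PA200, had 51.9, 51.1, 56.8, 51.6 and 57.2 CPM in tumours 1, 6, 7, 10 and 15 with MSC, against 62.8, 76.2, 69.6 and 48.8 CPM in tumours 9, 11, 12 and 13 without MSC. The groups overlapped in both, and neither PSME3 (-0.08 ± 0.09, edgeR adjusted p = 0.626) nor PSME4 (-0.26 ± 0.12, edgeR adjusted p = 0.181) was called with all tumours. PSME4 was called lower when tumour 13 was left out. The PSME2 call was made in 4 of 9 fits that left out 1 tumour and was lost without tumour 1, 10, 9, 11 or 12. PSMF1, which encodes the regulator PI31, was among the few members above 0, with 153, 157, 132, 153 and 144 CPM in tumours 1, 6, 7, 10 and 15 with MSC, against 136, 141, 115 and 140.1 CPM in tumours 9, 11, 12 and 13 without MSC. It was not called (0.15 ± 0.10, edgeR adjusted p = 0.363).

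The 4 core particle chaperones, PSMG1 to PSMG4, which assemble the alpha ring, had 0 calls in edgeR and ran from -0.24 in PSMG1 to 0.18 in PSMG4, with a median of -0.15. At an unadjusted p under 0.05 in edgeR, 0 of them were higher and 2 lower, where 12.8% of all genes were higher and 11.8% lower. Some values may hold reads of other genes, and in GENCODE 29, 12 members have named pseudogenes. Exons of PSMD1 overlap HTR2B, those of PSME2 overlap RNF31 and those of PSMB8 overlap PSMB9, each on the opposite strand. Those of PSMA2, PSMC5, PSMD13, PSME3, PSME4, PSMG2 and PSMG4 also overlap other genes on the opposite strand. PSMD9 overlaps WDR66 on the same strand. How the authors' counting treated strand and such reads was not tested.

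Promoters of members are shown because PSME2 and the immunoproteasome genes answer to interferon, and many subunit genes to NRF1. RefSeq promoters (GRCh38.p14) were matched by symbol for 42 of the 48 members, 51 windows in all, and the 250 bases before each start were searched on both strands. The core of an interferon-stimulated response element, searched as a GAAA and another GAAA with any 2 bases between, was found in 9.80% of the member windows and 3.02% of all 35116 windows. TGACNNNGC, the core of an antioxidant response element, which NRF1 and small MAF proteins bind, was found in 25.5% of the member windows and 10.9% of all. CCAAT was found in 37.3% and 32.0%. The windows below are written in the gene's own direction, with matches to the interferon element or TGACNNNGC on either strand in capitals. PSME2 lies at chr14:24146611-24146860 on the minus strand, PSMB10 at chr16:67936851-67937100 on the minus strand and the first of the PSMA4 windows at chr15:78540155-78540404 on the plus strand. PSMB9 at chr6:32853942-32854191 on the plus strand and the peptide transporter gene TAP1 at chr6:32853705-32853954 on the minus strand are neighbours that start back to back.
PSME2: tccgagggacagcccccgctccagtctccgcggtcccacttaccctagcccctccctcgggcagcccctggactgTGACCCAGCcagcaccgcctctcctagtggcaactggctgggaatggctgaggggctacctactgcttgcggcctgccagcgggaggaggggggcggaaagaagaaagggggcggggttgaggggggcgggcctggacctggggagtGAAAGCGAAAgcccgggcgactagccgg
PSMB10: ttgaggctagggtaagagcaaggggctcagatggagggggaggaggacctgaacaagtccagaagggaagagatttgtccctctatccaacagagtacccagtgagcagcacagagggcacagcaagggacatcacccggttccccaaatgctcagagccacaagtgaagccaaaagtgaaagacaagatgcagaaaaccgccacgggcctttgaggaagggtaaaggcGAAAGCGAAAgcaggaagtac
PSMA4: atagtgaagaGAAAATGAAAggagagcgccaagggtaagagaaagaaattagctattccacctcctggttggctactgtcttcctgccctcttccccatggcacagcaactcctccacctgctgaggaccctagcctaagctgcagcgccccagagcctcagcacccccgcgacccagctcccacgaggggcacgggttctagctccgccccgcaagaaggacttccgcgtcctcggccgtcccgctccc
PSMB9: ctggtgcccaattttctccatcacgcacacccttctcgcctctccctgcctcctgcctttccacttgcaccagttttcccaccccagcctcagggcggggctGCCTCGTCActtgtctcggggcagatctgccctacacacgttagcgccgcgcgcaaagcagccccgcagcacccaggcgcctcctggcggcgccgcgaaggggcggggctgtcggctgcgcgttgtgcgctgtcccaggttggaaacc
TAP1: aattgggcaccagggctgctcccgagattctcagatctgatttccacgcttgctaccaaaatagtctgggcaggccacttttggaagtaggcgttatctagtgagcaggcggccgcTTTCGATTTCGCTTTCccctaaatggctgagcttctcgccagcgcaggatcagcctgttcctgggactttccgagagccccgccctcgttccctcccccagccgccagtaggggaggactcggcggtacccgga
The interferon element was found in the windows of PSMA4, PSMB4, PSMB10, PSME2 and PSMG4 and of no other member. In the printed TAP1 window it was matched at -134 to -125 and at -128 to -119 from the TAP1 start. The PSMB9 window did not reach that stretch, and bases farther before the PSMB9 start were not searched as part of its promoter. A match is a description of these letters and not a binding site, and the called members PSMA5 and PSMD1 held neither of the first 2 motifs.

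TAP1, which encodes part of the transporter of peptides for MHC class I, had a log2 change opposite in sign to that of its neighbour PSMB9. TAP1 had 30.9, 28.9, 27.4, 30.6 and 31.7 CPM in tumours 1, 6, 7, 10 and 15 with MSC, against 17.6, 21.7, 23.0 and 27.9 CPM in tumours 9, 11, 12 and 13 without MSC. Only tumour 13 without MSC lay within the range with MSC, and the change of 0.41 ± 0.13 missed the threshold (edgeR adjusted p = 0.057). TAP1 was called higher by DESeq2, and in edgeR with a floor of 5 CPM or without tumour 13. The share of TAP1 in the counts of TAP1 and PSMB9 was 46.3 ± 6.62% with MSC and 33.7 ± 6.19% without, with some overlap (36.1 to 53.4% with MSC and 28.7 to 42.6% without). Of 21 tested genes of class I antigen processing and interferon gamma signalling, 2 rose and 1 fell, with a median of 0.11, where 4.18% of all genes rose and 3.6% fell. The genes that rose were HLA-E, a class I molecule read by natural killer cells (0.45 ± 0.12, edgeR adjusted p = 0.0244), and CALR, a chaperone of class I folding (0.47 ± 0.13, edgeR adjusted p = 0.0327). The gene that fell was JAK1, a kinase of interferon receptors (-0.35 ± 0.10, edgeR adjusted p = 0.0451). Leaving out 1 tumour ended the call of HLA-E without tumour 1, 6, 7, 10, 9 or 12, that of CALR without tumour 1, 6, 10, 9 or 12, and that of JAK1 in every case but tumour 13. All 3 calls were also lost without tumours 10 and 15 or without tumours 15 and 12, and that of JAK1 with library size only, with no filter and in limma-voom.

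In the NRF1 pathway of proteasome gene induction, 3 of 9 tested genes rose with MSC and 0 fell, with a median log2 change of 0.29. Over all genes 4.18% rose and 3.6% fell, with a median of 0.01, and the list was chosen with results of these data known. At an unadjusted p under 0.05 in edgeR, 4 of the list were higher and 1, NGLY1 (-0.28), was lower. Of all genes, 12.8% were higher and 11.8% lower at that threshold. NFE2L1, which encodes NRF1 itself, had 94.6, 105, 79.2, 116 and 131 CPM in tumours 1, 6, 7, 10 and 15 with MSC, against 62.8, 81.7, 65.3 and 83.7 CPM in tumours 9, 11, 12 and 13 without MSC. Tumours 10 and 15 were the highest, and tumour 7 with MSC lay within the range without MSC. Its change was 0.52 ± 0.13 (edgeR adjusted p = 0.0242). MAFF and MAFK encode small MAF proteins, the binding partners of NRF1. MAFF had 97.5, 93.4, 86.6, 101 and 97.4 CPM in tumours 1, 6, 7, 10 and 15 with MSC, against 72.9, 63.6, 70.2 and 83.7 CPM in tumours 9, 11, 12 and 13 without MSC. These groups were separate (0.39 ± 0.10, edgeR adjusted p = 0.027). MAFK had 38.2, 32.7, 26.6, 37.4 and 37.1 CPM in tumours 1, 6, 7, 10 and 15 with MSC, against 19.3, 19.2, 17.3 and 30.8 CPM in tumours 9, 11, 12 and 13 without MSC. Tumour 13 without MSC lay among the tumours with MSC (0.67 ± 0.16, edgeR adjusted p = 0.0168). All 3 calls were lost after correction for GC content and length and when tumours 10 and 15 or tumours 15 and 12 were left out together. The call of MAFF was also lost with library size only. With 1 tumour left out, the call of NFE2L1 was lost without tumour 10, 15, 9 or 12, that of MAFF without tumour 1, 10, 9, 11 or 12, and that of MAFK without tumour 1, 9 or 12.

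**Figure D4:**
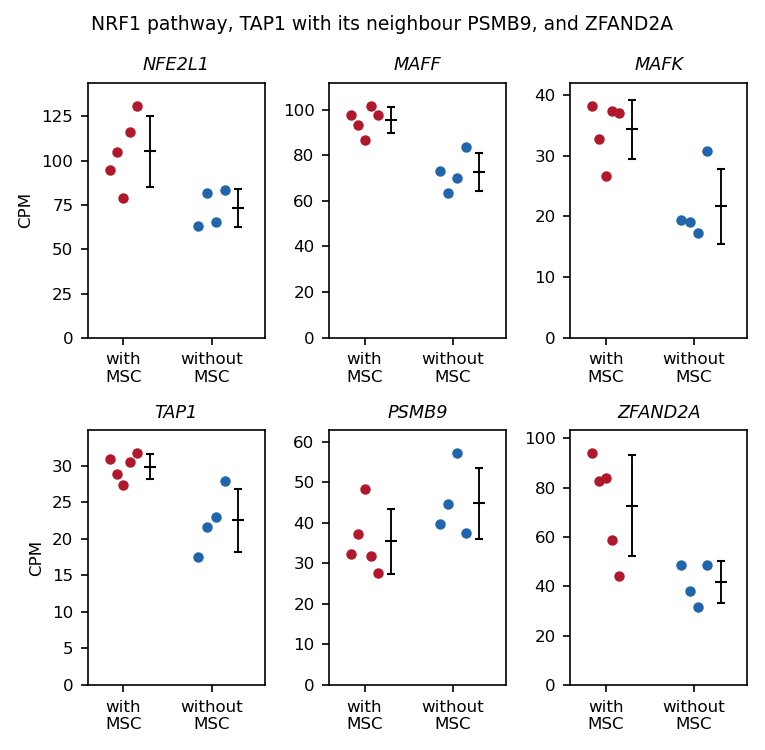
CPM in each tumour (points, 5 with MSC left and 4 without MSC right in each panel) with the mean and SD (bars), for NFE2L1, MAFF, MAFK, TAP1, PSMB9 and ZFAND2A. NFE2L1, MAFF, MAFK and ZFAND2A were called higher with MSC, while TAP1 and PSMB9 were not called and have means on opposite sides.

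Other genes around the proteasome showed few calls. Of 11 receptors and associated factors, 0 were called in edgeR, with a median of -0.17. At an unadjusted p under 0.05 in edgeR, 1 was higher and 5 lower, where 12.8% of all genes were higher and 11.8% lower. SHFM1, the smallest lid subunit, which the symbol rule does not take, was at -0.36 ± 0.11 (edgeR adjusted p = 0.0581), UBLCP1, a phosphatase of the proteasome, at -0.32 ± 0.12 (edgeR adjusted p = 0.102), and POMP, the chaperone of beta ring assembly, at -0.26 ± 0.12 (edgeR adjusted p = 0.199). SHFM1 was called lower by DESeq2, and in edgeR with library size only, with a floor of 5 CPM or without tumour 13, and UBLCP1 without tumour 7. KIAA0368 and AKIRIN2, of the same list, were also called lower without tumour 13. Of 6 ubiquitin genes and activating enzymes 0 were called with all tumours in edgeR, with a median of -0.09, and 1, UBA6, was lower at an unadjusted p under 0.05 in edgeR. Its change was -0.33 ± 0.13 (adjusted p = 0.127), and that of UBA1, the main activating enzyme, was -0.22 ± 0.11 (adjusted p = 0.228). UBA1 was called lower after correction for GC content and length, at -0.40, and UBA6 without tumour 13.

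Of 16 shuttle factors and genes of the p97 segregase, 1 rose and 1 fell, with a median of -0.01. Over all genes 4.18% rose and 3.6% fell. ZFAND2A, an arsenite-inducible protein that binds the proteasome, had 93.9, 82.6, 83.9, 58.8 and 44.1 CPM in tumours 1, 6, 7, 10 and 15 with MSC, against 48.6, 38.1, 31.6 and 48.7 CPM in tumours 9, 11, 12 and 13 without MSC. Only tumour 15 with MSC lay within the range without MSC (0.80 ± 0.20, edgeR adjusted p = 0.0264). UBQLN2, a shuttle that carries ubiquitinated proteins, had 31.0, 37.7, 34.4, 34.7 and 36.9 CPM in tumours 1, 6, 7, 10 and 15 with MSC, against 49.6, 55.6, 54.6 and 35.1 CPM in tumours 9, 11, 12 and 13 without MSC. Tumour 13 without MSC lay within the range with MSC (-0.48 ± 0.13, edgeR adjusted p = 0.0279). The call of ZFAND2A was lost with no filter and without tumour 1, 6, 7, 9, 11 or 12, while its log2 change stayed at 0.68 to 0.93 with 1 tumour left out. That of UBQLN2 was lost in limma-voom, without tumour 1, 7, 10, 9, 11 or 12 and without either set of 2 tumours, with log2 changes of -0.61 to -0.40 when 1 tumour was left out.

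**Figure D5:**
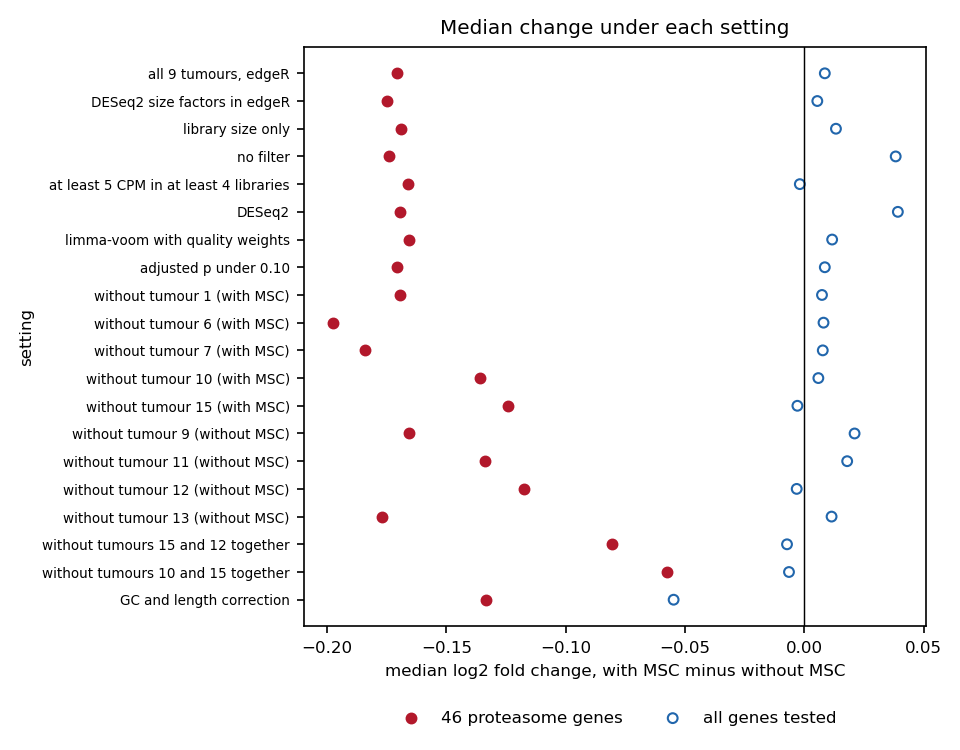
Median log2 change, with MSC minus without, of the 46 tested proteasome genes (filled points) and of all genes tested (open points) under each setting of the analysis (rows). The median of the members is below 0 and below that of all genes in every setting shown. Tumours 10 and 15 were left out because their sums were lowest, so that row says nothing of stability. Tumours 15 and 12 had the lowest and the highest sum, so the row without both says nothing of it either.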

How the data were processed

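The authors deposited unnormalized whole counts for each gene symbol. The submitters' processing notes list CASAVA 1.8.1, TopHat 1.4.0, HTSeq and the build hg19. The sources used here give no annotation, strand setting or removal of mouse reads. Libraries were made from polyA RNA with a TruSeq kit, per the labels' protocols. Lines for reads of no gene took 10.2 to 12.1% of a library and were left out.

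The test was edgeR 4.0.16 under R 4.3.3 (filterByExpr, TMM factors, glmQLFit with robust=TRUE, Benjamini-Hochberg threshold 0.05), with limma 3.58.1 and DESeq2 1.42.0 as alternatives. The fit used all 9 tumours and no covariate. No 2 libraries of a group agreed within sampling noise (smallest chi-square per degree of freedom 24.0). On simulated counts for this comparison, with 13268 genes tested, edgeR found 39 of 64 changes of 1.5-fold and 54 of 69 of 2-fold, and it called 9 of 13258 unchanged genes. GC content, lengths and overlaps came from GENCODE 29. For the GC and length correction, splines with 4 degrees of freedom gave offsets, and 11882 genes had values.

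The members, lists and named genes were chosen with earlier results of these data known. Values by tumour are given for called members, the catalytic and immunoproteasome subunits, the PSME activators and PSMF1, and the extremes of each class are named. From each other list the called genes are named, or the 2 of smallest p, with TAP1, NFE2L1 and POMP. PSMA6 and PSMD10 were given by tumour after their values were seen. 1 gene of the marker lists is not reported here.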

Additional observations from a re-analysis of the deposited data

Results flagged for a closer look

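In groups of 4 or 5 tumours, a tumour far from the others of its group was looked for in 60 genes, the tested members and the named pathway genes, which makes 120 groups, and 5 were found. Chance gives such a tumour in about 1 in 20 groups. PSME3 in tumour 10 with MSC had 218 CPM, below the other tumours with MSC. Without MSC, PSME3 in tumour 11 had 243 CPM, below the others, and PSMA5 in tumour 12 had 259 CPM, above the others. MAFK in tumour 13 without MSC had 30.8 CPM, above the others, and UBA6 in tumour 13 without MSC had 36.0 CPM, below the others. The cause of these values was not tested.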

How the results depend on the processing

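The count of members lower with MSC was 4 or 5 under DESeq2 size factors, library size only, no filter, a floor of 5 CPM in 4 or more libraries, the DESeq2 test, limma-voom and an adjusted p threshold of 0.1, and the count of members higher was 0 in each. Leaving out 1 tumour at a time gave 0 to 6 members lower. The count was 0 without tumour 1, 10 or 12, 1 without tumour 9 and 6 without tumour 13. From 0 to 1 members were higher, PSMB7 being called without tumour 13. The median log2 change of the members ran from -0.20 to -0.12 in these fits. Calls over all genes moved as well. With all 9 tumours, 563 of 13458 genes were higher and 484 lower. Without tumour 12 these were 151 and 94 of 13632, and without tumour 13 they were 985 and 863 of 13482. Leaving out tumours 15 and 12 together gave 0 members lower and a median of -0.08, and 201 of all 13517 genes were then higher and 101 lower. On the TMM scale tumour 15 had the lowest member sum (6828 CPM) and tumour 12 the highest (8564 CPM). A median nearer to 0 therefore follows from leaving out these tumours. Leaving out tumours 10 and 15 together, added after seeing the data and chosen for their low member sums, gave 0 members lower and a median of -0.057. These fits use fewer tumours. After GC and length correction 4 members were lower (PSMD1, PSME2, PSMB10 and PSMG3), with a median of -0.13, against -0.05 for all genes. Spearman's correlation of log2 change with GC content was 0.33 over the 46 members and 0.31 over 11882 genes, whose values share the same 9 libraries, and 0.01 over the members after the correction. A true difference that follows GC content would be removed in part. No paired analysis was possible because the groups share no tumour numbers. The members' SEs had a median of 0.11 on the log2 scale, and 35 of 46 intervals lay within 0.5 of 0.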

Other observations

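PSMA8, the testis form of an alpha subunit, had all 30 of its counts in tumour 7 with MSC and 0 counts in the other 8 tumours. PSMB11 had 1 count in tumour 15 with MSC and 1 in tumour 11 without MSC.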
